A study of Mus musculus with 69 samples.

Results

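This account follows 9 genes of retinoid metabolism and the retinoic acid response through every culture of an mRNA sequencing study of mouse vascular cells. The genes were *Stra6*, *Rdh10*, *Dhrs3*, *Aldh1a1*, *Aldh1a2*, *Aldh1a3*, *Crabp2*, *Rarb* and *Cyp26b1*. They are 9 of the 56953 genes counted, all protein-coding, and their rows were found by matching Ensembl identifiers to these symbols. The 9 symbols were chosen by pathway with earlier results of these libraries in view, and the values behind that choice are not recorded, so the tests below describe the genes and give no independent support for the choice.

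The cultures came from male C57BL/6 mice, whose age is not given in the sources used here. Primary aortic vascular smooth muscle cells (VSMC) were grown from wild-type mice (WT VSMC) and from mice with floxed *Egfr*, the gene of the epidermal growth factor receptor, and Cre driven by the SM22 promoter of smooth muscle (KO VSMC). Endothelial cells (EC) were grown from the hearts of mice labelled wild-type and were selected on beads as CD45- and CD31+ cells. VSMC were kept without serum before exposure, a step that the sources used here describe for VSMC and not for EC. For 24 h the cells received no stressor (Control), 20 mM glucose with 100 µM free fatty acids (HG + FFA), 30 nM angiotensin II with 300 nM of a catecholamine (AII + NA), or all of these together (ALL). The labels give the fatty acid dose as stated, whereas the study's methods give 100 µM of oleate and 100 µM of palmitate. The labels call the catecholamine epinephrine, whereas the study's methods call it norepinephrine. A set was 1 animal at 1 passage, cultured in the 4 conditions, of which KO VSMC set 5 lacked ALL, EC set 10 Control and EC set 15 AII + NA. There were 4 WT VSMC libraries in each condition. KO VSMC had 4, except 3 in ALL. EC had 9 in Control, 10 in HG + FFA, 9 in AII + NA and 10 in ALL.

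In GRCm39, *Dhrs3* (ENSMUSG00000066026) lies at chr4:144619245-144654779, *Aldh1a1* (ENSMUSG00000053279) at chr19:20469539-20622825, *Aldh1a2* (ENSMUSG00000013584) at chr9:71122630-71203527, *Aldh1a3* (ENSMUSG00000015134) at chr7:66040638-66077850 and *Cyp26b1* (ENSMUSG00000063415) at chr6:84548396-84570890.

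Retinol is taken up by cells, with STRA6 as a membrane receptor for its carrier, and is oxidized to retinal by RDH10. DHRS3 runs the opposite step and reduces retinal to retinol. The enzymes ALDH1A1, ALDH1A2 and ALDH1A3 oxidize retinal to retinoic acid, which is carried to the nucleus by CRABP2 and bound there by receptors such as RARB. CYP26B1 degrades retinoic acid. *Dhrs3*, *Rarb* and the *Cyp26* genes are widely known to be induced by retinoic acid, so that the pathway limits its own output, and retinoic acid is known in vessels for promoting the contractile state of smooth muscle.

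*Rarb* carries a textbook retinoic acid response element, and its sequence is shown because it is the best known DNA element of this pathway. RefSeq windows from 250 bases before to 50 bases after a start site were at hand for 6 of the 9 genes (*Stra6*, *Dhrs3*, *Aldh1a1*, *Aldh1a2*, *Rarb* and *Cyp26b1*), with coordinates of build GRCm38.p6. Both strands were searched for a receptor half-site of 6 bases (A or G, then G, then G or T, then T, then C or G, then A) repeated in the same orientation with 1, 2 or 5 bases between. Of 32817 such windows, 0.609% held a repeat with a spacer of 1 base, 0.472% with 2 and 0.323% with 5. Among the windows of the 6 genes there was a single match, the spacing of 5 bases in *Rarb*, on the strand of the gene and from 53 to 37 bases before the start. The same bases were found once on chromosome 14 of GRCm39, the build of the count tables, at chr14:5894234-5894250. This place lies within the span of *Rarb*, in bases that GENCODE annotates as exon. The repeat is given in capitals with its flanks (chr14:5894228-5894257, plus strand). The bases of *Cyp26b1* that lie before its annotated exon (chr6:84570891-84571042, minus strand) follow for comparison and hold no such repeat, which says only that these letters are absent from this window.
*Rarb*: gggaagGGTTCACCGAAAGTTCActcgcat
*Cyp26b1*: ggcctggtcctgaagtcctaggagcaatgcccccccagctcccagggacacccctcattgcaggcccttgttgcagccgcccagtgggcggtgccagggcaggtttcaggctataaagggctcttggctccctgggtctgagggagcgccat

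Depth ranged from 17166133 to 43240489 counts per library. *Egfr* was at 227.5 to 504.3 FPM (counts per 1000000 of the scaled library size) in the WT VSMC libraries. KO VSMC sets 6, 7 and 8 held 0.5375 to 1.957 FPM, but set 5 retained 33.4 to 40.2 FPM, so KO VSMC values are also given without it where that changes a result. The EC libraries were a mixed collection. Their 8 endothelial markers (*Pecam1*, *Cdh5* and others) summed to between 46.8 and 4880 FPM, against 1.963 to 68.8 FPM in WT VSMC, and their 6 fibroblast markers (*Pdgfra*, *Dcn* and others) summed to between 436 and 11250 FPM. In EC sets 9, 11 and 13 the endothelial sum lay below the sum of 8 smooth muscle markers, and in 6 sets it lay below the fibroblast sum. In WT VSMC the fibroblast sum, 4013 to 11930 FPM, exceeded the smooth muscle sum of 374 to 2152 FPM. Of the markers that define smooth muscle, *Acta2* had a median of 886.4 FPM over WT VSMC libraries, while *Myh11* was at 6.44 and *Tagln*, the gene of SM22, at 4.06 FPM. In bulk RNA, fewer cells of a type and less RNA per cell cannot be told apart. EC sets 15 and 16 came from animals that also gave KO VSMC sets 7 and 6, although labelled wild-type, and held 9.4 and 2.65 FPM of *Egfr*, the lowest of the 10 EC sets. EC sets 17 and 18 came from 1 animal.

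Without stressors, *Aldh1a1* and *Dhrs3* had the highest mean levels and *Crabp2*, *Rarb* and *Stra6* the lowest in each of the 3 cell groups. The order of the genes between them differed between the cell groups. In the following sentences levels are per length, in FPM per kilobase of exon (FPKM), so that genes can be compared. *Aldh1a1* had the highest mean in all 3, at 30.1 ± 23.05 FPKM in WT VSMC (SD, n = 4), 28.8 ± 19.7 in KO VSMC (n = 4) and 79.6 ± 64.9 in EC (n = 9). In WT VSMC *Dhrs3* followed at 24.7 ± 3.21 FPKM, and the pair could not be ordered, since *Aldh1a1* was the higher in only 1 of 4 sets. *Aldh1a2* (19.0 ± 7.05), *Aldh1a3* (7.72 ± 4.64), *Cyp26b1* (5.21 ± 1.98) and *Rdh10* (4.28 ± 0.624 FPKM) came next. *Dhrs3* exceeded *Aldh1a2*, and *Aldh1a2* exceeded *Aldh1a3*, in 4 of 4 sets, whereas each of the next pairs was ordered in 3 of 4. The other genes were close to the detection limit, with *Crabp2* at 0.604 ± 0.191, *Rarb* at 0.0349 ± 0.0190 and *Stra6* at 0.00648 ± 0.00749 FPKM. In KO VSMC *Dhrs3* (26.75 ± 10.6) and *Cyp26b1* (22.2 ± 17.1) followed *Aldh1a1*, then *Aldh1a2* (8.81 ± 5.78), *Rdh10* (4.82 ± 1.83) and *Aldh1a3* (3.47 ± 5.61 FPKM). Each of the first 4 of these 6 genes exceeded the next in 2 of 4 sets only, so their order was not fixed.

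**Figure D1:**
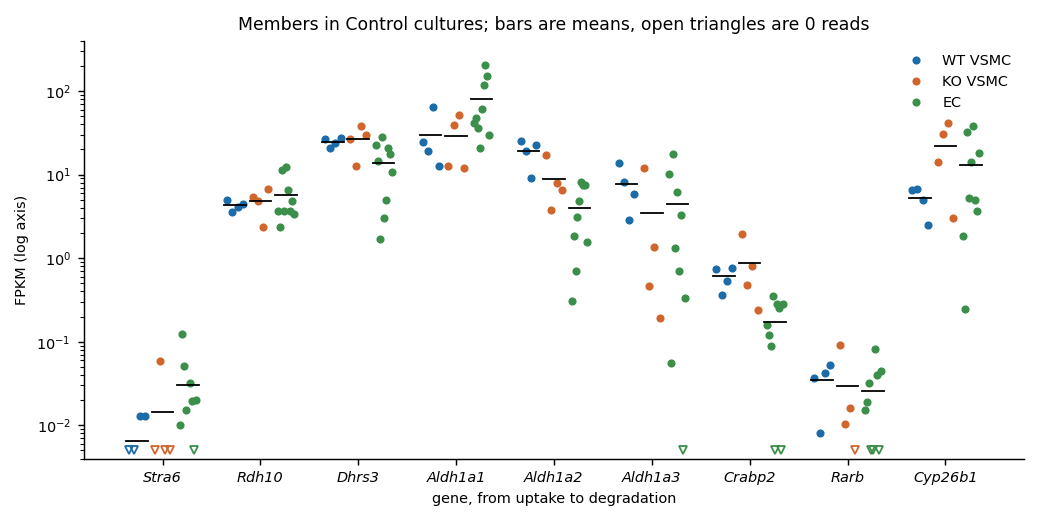
Length-scaled levels (FPKM, log axis) of the 9 genes in Control cultures, 1 point per set, with bars for group means and open triangles for libraries with 0 reads. *Aldh1a1* had the highest mean in each cell group, and *Stra6* and *Rarb* did not exceed 0.1247 FPKM in any Control library.

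In EC the order was *Aldh1a1*, *Dhrs3* (13.8 ± 9.39 FPKM), *Cyp26b1* (13.2 ± 13.8), *Rdh10* (5.75 ± 3.65), *Aldh1a3* (4.43 ± 6.06) and *Aldh1a2* (3.95 ± 3.14). *Aldh1a1* exceeded *Dhrs3* in 8 of 9 sets. *Dhrs3* exceeded *Cyp26b1* in 5 of 9 and *Aldh1a3* exceeded *Aldh1a2* in 3 of 9, so neither pair was ordered beyond its spread. Levels of a single gene differed widely between EC sets. From here levels are in FPM, for comparison within a gene. Averaged over conditions, *Cyp26b1* ran from 2.35 FPM in set 11 to 347 in set 12, *Aldh1a3* from 0.445 in set 11 to 83.7 in set 10, and *Aldh1a2* from 0.979 in set 9 to 28.1 in set 17. Sets 17 and 18, of the same animal, held 2003 and 438 FPM of *Aldh1a1*.

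There were 4 animals that gave both VSMC and EC, and the means over shared conditions can be set side by side. Their EC sets were 9, 10, 16 and 15, in the order of the values below. In sets 9, 10 and 16 the endothelial marker sum lay below the fibroblast sum, and in set 9 also below the smooth muscle sum. *Aldh1a1* was higher in EC in all 4, with 540 against 348, 1671 against 342, 2088 against 530 and 1429 against 689 FPM. *Aldh1a2* was lower in EC in the 2 animals that gave WT VSMC, at 0.979 against 82.0 and 14.1 against 72.8 FPM, and higher in the 2 that gave KO VSMC, at 24.7 against 15.1 and 28.1 against 20.2 FPM. All VSMC carry 1 batch label and all EC another, so cell type and batch cannot be told apart and no test was made.

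The main question for these genes was how each stressor moved them. In WT VSMC the combined stressors changed 5 of the 9. *Dhrs3*, *Cyp26b1* and *Aldh1a1* rose, by 3.13, 2.33 and 2.18-fold, while *Aldh1a3* and *Aldh1a2* fell to 0.357 and 0.571 of Control. A gene was called changed where the false discovery rate (FDR, adjusted over all genes tested) was below 0.05 in both edgeR and DESeq2, the log2 fold change was at least 0.64 either way, and 1 group averaged at least 3 FPM. By this rule 2.22% of the 16905 genes tested were called in this comparison. Of the 9 genes, 8 passed the filter on low counts and *Stra6* did not, and *Rarb* and *Crabp2* were below 3 FPM throughout and could not be called. The median log2 fold change of the 8 was 0.475, against -0.01 over all genes tested. Since the genes moved both ways, this median describes no common direction. The median absolute log2 fold change was 1.17, against 0.146 over all genes tested.

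*Dhrs3*, which returns retinal to retinol, was at 87.8, 66.8, 76.6 and 88.9 FPM in Control of WT VSMC sets 1 to 4. In ALL the same sets held 336, 272, 180 and 217.5 FPM. The groups did not overlap, and the log2 fold change was 1.65 ± 0.18 (SE; edgeR FDR 1.8e-04). Under HG + FFA the values were 340, 130, 194 and 185.5 FPM, again above every Control library, with a log2 fold change of 1.35 ± 0.18 (FDR 0.00249). Under AII + NA they were 91.7, 63.5, 87.2 and 104 FPM, close to Control in each set (log2 fold change 0.11 ± 0.18, FDR 0.892).

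*Aldh1a3*, 1 of the 3 enzymes that make retinoic acid, moved the other way. Its Control levels were 79.0, 46.7, 16.4 and 33.8 FPM in sets 1 to 4. They were 20.3, 24.54, 6.44 and 17.03 FPM under HG + FFA and 20.7, 15.9, 7.42 and 14.3 FPM under ALL. Each set fell under both, although the groups overlapped because set 3 started low. The log2 fold changes were -1.29 ± 0.16 (FDR 0.00149) and -1.48 ± 0.16 (FDR 0.000171). In AII + NA the 4 sets were at 68.7, 37.9, 12.3 and 27.4 FPM (-0.29 ± 0.16, FDR 0.6).

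*Aldh1a2*, the enzyme best known from embryonic retinoic acid synthesis, was at 115.5, 89.1, 41.6 and 104.4 FPM in Control and 52.7, 39.2, 33.1 and 67.4 FPM in ALL. It fell in 4 of 4 sets by 0.81 ± 0.15 on the log2 scale (FDR 0.00533). Under HG + FFA it was lower in 4 of 4 sets too, with 57.6, 66.4, 33.05 and 80.0 FPM, but the log2 fold change of -0.53 ± 0.15 was not called (FDR 0.152). The groups overlapped in both comparisons.

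*Aldh1a1*, the most abundant of the 3, had Control levels of 263, 207, 687 and 138 FPM. They were 375, 271.5, 1126 and 206 FPM under HG + FFA, 327, 268, 811 and 336 under AII + NA, and 428, 486, 1183 and 468 under ALL. Set 3 stood above the other sets in every condition, and the level was above Control in 4 of 4 sets under each stressor. The log2 fold changes were 0.56 ± 0.17 for HG + FFA (FDR 0.194), 0.56 ± 0.17 for AII + NA (FDR 0.266) and 1.12 ± 0.17 for ALL (FDR 0.0015), of which only the last was called.

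*Cyp26b1*, which clears retinoic acid, followed a like pattern. Control held 37.4, 38.8, 28.2 and 14.4 FPM, HG + FFA 64.8, 67.2, 35.7 and 17.2, AII + NA 43.6, 44.0, 28.4 and 33.3, and ALL 87.3, 97.2, 39.4 and 51.8 FPM. All 4 sets lay above their own Control in each stressor, and every ALL library lay above every Control library. The log2 fold change was 1.22 ± 0.21 for ALL (FDR 0.00286), 0.57 ± 0.21 for HG + FFA (FDR 0.285) and 0.40 ± 0.21 for AII + NA (FDR 0.588).

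**Figure D2:**
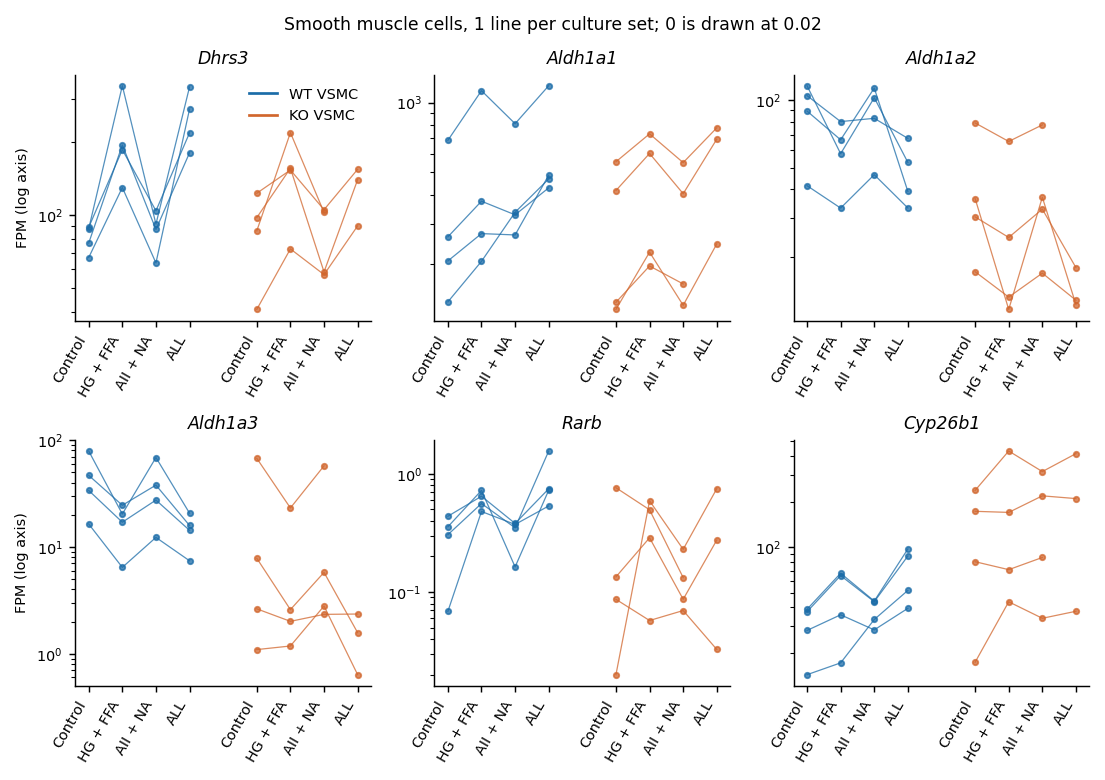
Levels (FPM, log axis) of 6 genes in the smooth muscle cultures, with 1 line per set across Control, HG + FFA, AII + NA and ALL, WT VSMC in blue and KO VSMC in orange. In WT VSMC the *Dhrs3* lines run from 66.8 to 88.9 FPM in Control up to 180 to 336 FPM in ALL, while the *Aldh1a3* lines run downward. KO set 5, the uppermost of the KO lines for *Aldh1a2* and *Aldh1a3*, has no ALL library.

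The remaining genes changed little or were too low. *Rarb*, the receptor gene with the element shown above, had 0.306, 0.0686, 0.356 and 0.438 FPM in Control and 1.56, 0.535, 0.727 and 0.747 FPM in ALL. All 4 ALL libraries lay above all Control libraries (log2 fold change 1.60 ± 0.40, edgeR FDR 0.0232), on 2 to 48 counts per library in these groups, and the FDR was above 0.05 when set 1, 2 or 4 was left out (0.157, 0.0659 and 0.0628). Of its exon bases, 33.9% overlap *Top2b* and another gene on the opposite strand, and whether counting used strand is not stated, so counts of the strands cannot be told apart. *Rdh10*, the opposing oxidase of *Dhrs3*, stayed between 14.6 and 23.2 FPM in all 16 WT VSMC libraries, and its log2 fold change in ALL was -0.20 ± 0.07 (FDR 0.115). *Crabp2* stayed between 0.251 and 1.27 FPM and *Stra6* between 0 and 0.26 FPM.

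Marker sums moved with ALL in WT VSMC as well. Against the Control of the same set, the smooth muscle sum was higher in 3 of 4 sets (mean log2 ratio 0.88 ± 0.97, SD), the endothelial sum lower in 4 of 4 (-0.67 ± 0.38) and the pericyte sum lower in 4 of 4 (-0.50 ± 0.27), while the fibroblast sum was at -0.20 ± 0.28. Under HG + FFA the smooth muscle and endothelial sums were lower in 4 of 4 sets, at -0.19 ± 0.31 and -0.16 ± 0.11. Under AII + NA, where none of the 9 genes was called, the smooth muscle sum was higher in 4 of 4 sets (1.10 ± 0.79). There the endothelial and pericyte sums were lower in 4 of 4 (-0.20 ± 0.14 and -0.21 ± 0.21), and the fibroblast sum was at -0.15 ± 0.19. The Schwann cell sum was lower in 4 of 4 under AII + NA as well (-0.27 ± 0.29). The cardiomyocyte sum was higher in 4 of 4 under AII + NA (0.96 ± 0.75) and in 3 of 4 under ALL (0.90 ± 1.06). The endothelial sum was low, with a median of 9.40 FPM over the WT VSMC libraries and 6 of its 8 markers at medians under 1 FPM. *Acta2* made up most of the smooth muscle sum, with a median of 886 FPM against 1046 FPM for the sum. The part of these sums in the changes of the called genes was not tested.

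With HG + FFA alone, 2 of the 9 genes were called in WT VSMC (*Dhrs3* and *Aldh1a3*), where 0.29% of all tested genes were. With AII + NA none was called, against 0.0473% of all genes, and none had a DESeq2 call. An unadjusted edgeR p below 0.05 was found for 1 of the 8 genes tested and for 1592 of all 16905. ALL was also compared with HG + FFA directly. None of the 9 was called there (0.0296% of all genes were). *Cyp26b1* was 0.65 ± 0.21 higher on the log2 scale in ALL than in HG + FFA (edgeR FDR 0.244, DESeq2 FDR 0.223) and *Aldh1a1* 0.57 ± 0.17 higher (edgeR FDR 0.209, DESeq2 FDR 0.0433), while *Dhrs3* differed by 0.29 ± 0.18 (FDR 0.572). At an unadjusted edgeR p below 0.05 there were 3 of 8, and 1829 of all 16905 genes tested.

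**Figure D3:**
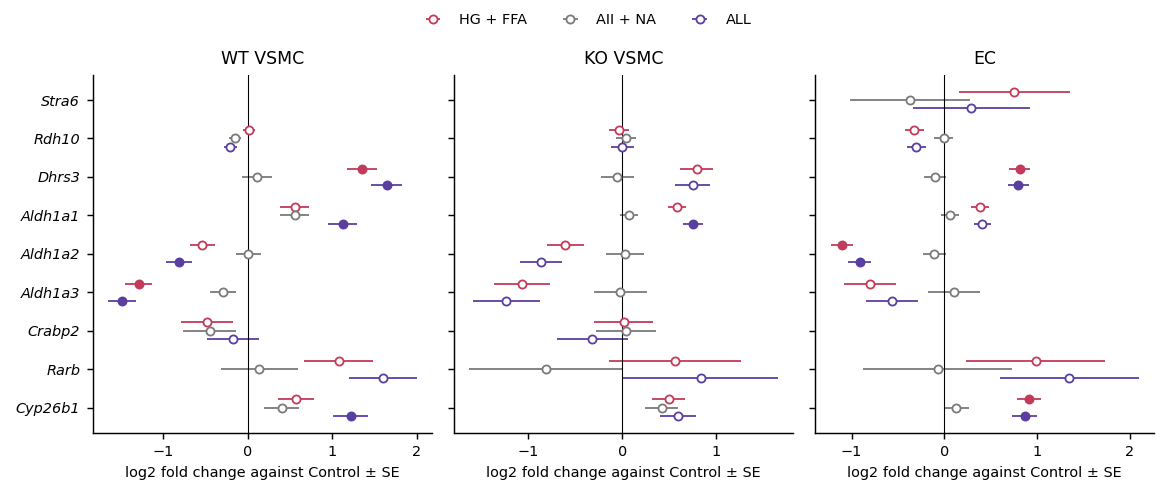
Log2 fold change against Control with its standard error for each gene that passed the count filter, in WT VSMC, KO VSMC and EC. Filled points were called and open points were not. Under HG + FFA and ALL, *Dhrs3* lies on the right and *Aldh1a2* and *Aldh1a3* on the left in all 3 panels, and no AII + NA point was called.

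In KO VSMC the same comparisons gave 1 called gene, *Aldh1a1* in ALL. Its Control levels were 137, 417, 555 and 128 FPM in sets 5 to 8, and ALL held 695, 778 and 245 FPM in sets 6 to 8. It rose in 3 of 3 sets (log2 fold change 0.75 ± 0.11, FDR 0.00612), and 0.314% of 17538 genes were called. The call was lost when set 6 or set 7 was left out (FDR 0.159 and 0.13), which leaves 2 sets with ALL. Beside this, the mesothelial or epicardial marker sum was higher than Control in 3 of 3 sets (mean log2 ratio 0.56 ± 0.23, SD), and the fibroblast sum (-0.31 ± 0.33), the leukocyte sum (-0.27 ± 0.19) and the cardiomyocyte sum (-1.36 ± 0.65), the last mostly *Tnnt2*, were lower in 3 of 3. Their part in the change was not tested. *Dhrs3* was higher in 3 of 3 sets (90.2, 154 and 140 FPM against 40.9, 123 and 97.5; 0.75 ± 0.19, edgeR FDR 0.123, DESeq2 FDR 0.0252). *Aldh1a2* was lower in 3 of 3, with 12.9, 12.3 and 17.98 FPM against 17.2, 36.5 and 30.2 FPM (-0.87 ± 0.23, edgeR FDR 0.139, DESeq2 FDR 0.0167).

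Under HG + FFA none of the 9 was called in KO VSMC, against 0.285% of all genes, although DESeq2 alone called *Dhrs3*. An unadjusted edgeR p below 0.05 was found for 5 of 8 and for 2181 of all 17538 genes tested. *Aldh1a1* was raised in 4 of 4 sets with an FDR of 0.0151, but its log2 fold change of 0.58 ± 0.10 was under the limit of 0.64. *Dhrs3* was at 218, 72.5, 153 and 155.5 FPM against Control levels of 86.0, 40.9, 123 and 97.5 FPM (0.79 ± 0.18, FDR 0.0704). Without set 5, the set that retained *Egfr*, *Cyp26b1* was called (log2 fold change 0.706, FDR 0.0283), against 0.49 ± 0.18 (FDR 0.309) with all sets. Its log2 ratios to Control were 0.86 and 1.32 in sets 7 and 8 but -0.024 in set 6 and -0.17 in set 5. Under HG + FFA the mesothelial or epicardial sum was higher than Control in 4 of 4 KO VSMC sets (mean log2 ratio 0.39 ± 0.17, SD). The pericyte and cardiomyocyte sums were higher in 1 of 4 each (-0.50 ± 0.44 and -1.08 ± 1.07). The part of these sums in the KO VSMC changes was not tested. *Aldh1a3* was at 67.5 FPM in Control of set 5 and at 2.63, 7.83 and 1.09 FPM in sets 6 to 8. It was lower in 3 of 4 sets under HG + FFA (-1.07 ± 0.29, edgeR FDR 0.177, DESeq2 FDR 0.215). Under ALL it was lower in 3 of 3 sets (-1.235 ± 0.36, edgeR FDR 0.205, DESeq2 FDR 0.17), and neither change was called. With AII + NA none was called (0% of all genes), and none by DESeq2. There 1 of 8 genes had an unadjusted edgeR p below 0.05, against 1711 of all 17538. For ALL against HG + FFA none was called either (0% of all genes, none by DESeq2). An unadjusted edgeR p below 0.05 was then found for 0 of 8 and for 510 of all 17538 genes.

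Whether the genotype altered the responses was tested as the difference between the WT VSMC and KO VSMC effects. None of the 9 genes was called for HG + FFA (0% of 18339 genes), AII + NA (0%) or ALL (0.0109%), with none called by DESeq2. In each, 1 of 8 tested had an unadjusted edgeR p below 0.05, against 564, 2182 and 1361 of all 18339 genes in that order. The largest difference in ALL among genes above 3 FPM was that of *Dhrs3*, whose log2 effect was 0.90 ± 0.29 greater in WT VSMC (unadjusted edgeR p 0.00439, FDR 0.384, 95% interval 0.310 to 1.497). Without KO set 5 it was 0.997 (FDR 0.194). For *Cyp26b1* it was 0.63 ± 0.31 (unadjusted p 0.0549, FDR 0.679, interval -0.0145 to 1.28), for *Aldh1a1* 0.38 ± 0.22 (FDR 0.733, interval -0.0771 to 0.834), and for *Aldh1a2* 0.06 ± 0.29 (FDR 0.973, interval -0.537 to 0.661). For *Aldh1a3* the difference in ALL was -0.22 ± 0.41 (FDR 0.919, interval -1.063 to 0.614). These intervals are wide, and they do not show that the genotypes responded alike.

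In Control cultures the genotypes were compared directly as well. None of the 9 was called, where 0.00622% of 16089 genes were. An unadjusted edgeR p below 0.05 was found for 2 of 7 tested and for 1958 of all 16089. *Cyp26b1* was at 80.1, 172, 237 and 17.4 FPM in KO VSMC against 37.4, 38.8, 28.2 and 14.4 FPM in WT VSMC, with overlap through KO set 8 (log2 difference 2.08 ± 0.66, edgeR FDR 0.361, DESeq2 FDR 0.0305). *Aldh1a2* was lower in KO VSMC, at 78.9, 17.2, 36.5 and 30.2 FPM against 115.5, 89.1, 41.6 and 104.4 FPM (-1.09 ± 0.46, FDR 0.408). *Aldh1a3* differed by -1.15 ± 1.08 (FDR 0.643), and by -3.50 (FDR 0.0486) once set 5 was left out. In Control libraries the mesothelial or epicardial sum was at 6.867 to 103.2 FPM in KO VSMC and 3.064 to 9.98 FPM in WT VSMC. In the same order, the fibroblast sum was at 1432 to 6525 and 4954 to 11930 FPM. The pericyte sum was at 79.68 to 571.7 and 19.88 to 89.28 FPM, and the smooth muscle sum at 967.3 to 3074 and 384.5 to 1221 FPM. The ranges of the genotypes overlapped for each of these sums. The part of these sums in the genotype differences was not tested.

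In EC, both exposures with glucose and fatty acids changed 3 of the 9 genes. *Dhrs3* and *Cyp26b1* rose and *Aldh1a2* fell, each in 9 of the 9 sets that had a Control library, under HG + FFA and under ALL alike. Of all 17148 genes tested, 0.641% were called under HG + FFA and 0.636% under ALL. Here 8 of the 9 genes passed the count filter, and *Crabp2* did not.

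*Aldh1a2* had the largest fitted change of the 3 called genes under both exposures. In Control it ranged from 1.44 to 37.9 FPM with a median of 14.4, under HG + FFA from 0.483 to 21.7 with a median of 8.79, and under ALL from 0.723 to 24.6 with a median of 9.11 FPM. The ranges overlapped widely, since the sets start from very different levels, but within every set the ratio to Control was below 1. The log2 fold change was -1.10 ± 0.12 under HG + FFA (FDR 4.4e-07) and -0.91 ± 0.12 under ALL (FDR 1.05e-05).

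*Cyp26b1* ranged from 1.42 to 217 FPM in Control (median 30.2), from 3.05 to 541 FPM under HG + FFA (median 113) and from 3.44 to 474 FPM under ALL (median 118). Its log2 fold changes were 0.92 ± 0.13 (FDR 4.51e-05) and 0.87 ± 0.13 (FDR 0.000101). *Dhrs3* ranged from 5.52 to 92.4 FPM in Control (median 47.0), from 12.4 to 113 FPM under HG + FFA (median 84.4) and from 15.1 to 137 FPM under ALL (median 64.5), with log2 fold changes of 0.82 ± 0.11 (FDR 2.36e-05) and 0.80 ± 0.11 (FDR 3.13e-05). For both genes the groups overlapped while each set rose.

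*Aldh1a1* was at 226 to 2226 FPM in Control, with a median of 516, and at 374.5 to 2215 and 501 to 2408 FPM under HG + FFA and ALL, with medians of 689 and 678. It passed the FDR in both (0.014 and 0.00987) at log2 fold changes of 0.39 ± 0.09 and 0.41 ± 0.09, under the limit for a call, and was higher in 7 and 9 of 9 sets. *Aldh1a3* was lower in 7 of 9 sets under both, and higher in 2, but its log2 fold changes of -0.80 ± 0.28 and -0.56 ± 0.28 did not pass (FDR 0.116 and 0.318). *Rdh10* was lower by 0.32 ± 0.10 and 0.30 ± 0.10 on the log2 scale (edgeR FDR 0.0752 and 0.105, DESeq2 FDR 0.037 and 0.0659). *Rarb* and *Stra6* stayed under 2 FPM in all 38 EC libraries.

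**Figure D4:**
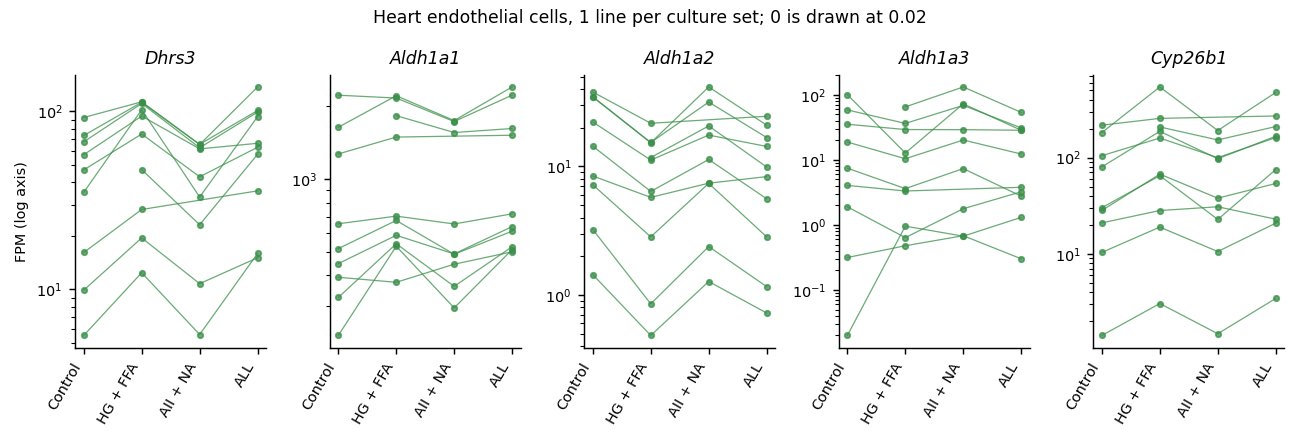
Levels (FPM, log axis) of 5 genes in EC, with 1 line per set across the 4 conditions. The sets of *Cyp26b1* span 1.42 to 217 FPM in Control, and each set with a Control library rises from Control to HG + FFA and to ALL, while *Aldh1a2* falls in each. Set 10 has no Control and set 15 no AII + NA library.

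With AII + NA none of the 9 was called in EC (0% of all genes, none by DESeq2). The log2 fold changes were -0.11 ± 0.12 for *Aldh1a2*, -0.10 ± 0.12 for *Dhrs3* and 0.13 ± 0.14 for *Cyp26b1*. None was called between ALL and HG + FFA either (0% of all genes, none by DESeq2). In both comparisons 0 of 8 had an unadjusted edgeR p below 0.05, against 1143 and 881 of all 17148 genes.

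The EC calls were examined beside the mixed markers. Without the 3 sets whose endothelial sum lay under the smooth muscle sum, and likewise with only the 4 sets whose endothelial sum exceeded the fibroblast sum, *Aldh1a2*, *Cyp26b1* and *Dhrs3* remained called in both comparisons. With those 4 sets the log2 fold changes under HG + FFA were -1.19, 0.91 and 1.13. Both choices were made after the data were seen. They sort sets by marker sums averaged over conditions and do not measure a shift of cell types within a set, whose part was not tested. Under HG + FFA the pericyte sum was lower than Control in 8 of 9 EC sets (mean log2 ratio -0.58 ± 0.30, SD) and the fibroblast sum in 7 of 9 (-0.25 ± 0.27). The cardiomyocyte sum was higher in 1 of 9 (-0.3 ± 0.52) and the mesothelial or epicardial sum in 6 of 9 (0.27 ± 0.40). Under ALL the pericyte and fibroblast sums were higher in 2 of 9 each (-0.28 ± 0.40 and -0.17 ± 0.26). The cardiomyocyte sum was then higher in 1 of 9 (-0.41 ± 0.55) and the mesothelial or epicardial sum in 7 of 9 (0.41 ± 0.45). The part of these sums in the EC changes was not tested. With neither choice of sets did *Aldh1a1* still pass the FDR (0.163 and 0.256 under HG + FFA). With sets 17 and 18 treated as 1 animal in the model, only *Dhrs3* remained called, and the log2 fold changes of *Aldh1a2* and *Cyp26b1* under HG + FFA were then -1.10 (FDR 0.0924) and 0.93 (FDR 0.153). This model also drops the pairing within these 2 sets, which held 28.1 and 5.06 FPM of *Aldh1a2* and 25.7 and 131 FPM of *Cyp26b1*. The cause of the lost calls was not tested.

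**Figure D5:**
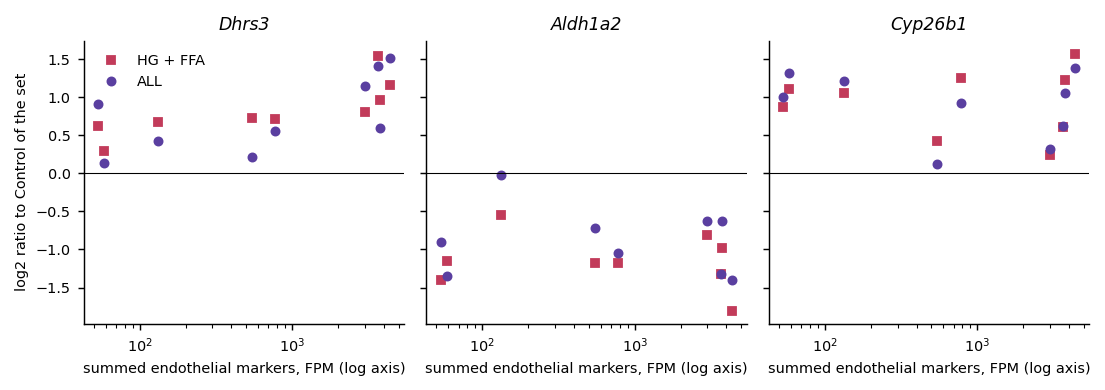
Log2 ratio to Control of each EC set for *Dhrs3*, *Aldh1a2* and *Cyp26b1* (vertical) against the summed endothelial markers of that set (horizontal, FPM, log axis), squares for HG + FFA and circles for ALL. The signs are the same in the sets of the lowest sums (53.4 and 58.6 FPM) as in that of the highest (4370 FPM), and *Aldh1a2* ratios run from -0.016 to -1.805. Each sum is a mean over the conditions of a set, so shifts of cell types within a set are not shown and their part was not tested.

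A wider list of 70 genes of the pathway, of which 69 were found, was read as well, with transport proteins, other oxidoreductases, receptors, cofactors and genes known to respond to retinoic acid. Across all comparisons 4 of them were called. *Tgm2*, the tissue transglutaminase and a classical retinoic acid-responsive gene, rose in all 3 cell groups under both HG + FFA and ALL. Its mean went from 88.1 ± 44.4 FPM in Control to 160 ± 90.6 in HG + FFA and 181 ± 92.3 in ALL in WT VSMC (SD, n = 4), from 126.5 ± 18.5 to 211 ± 34.0 (n = 4) and 227 ± 47.0 (n = 3) in KO VSMC, and from 43.04 ± 33.4 (n = 9) to 62.9 ± 45.5 and 68.1 ± 52.0 FPM in EC (n = 10). The log2 fold changes ran from 0.75 ± 0.15 (KO VSMC, HG + FFA, FDR 0.0328) to 1.06 ± 0.14 (WT VSMC, ALL, FDR 0.000436).

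The other 3 were called in the ALL comparison of WT VSMC, where 3 of the 49 tested genes of the list rose and 1 fell. That comparison called 2.22% of all genes, more than any other, and whether these 3 genes responded differently elsewhere is not shown by their calls. *Fabp5*, a fatty acid-binding protein that also carries retinoic acid, rose from 136 ± 92.8 to 250 ± 49.3 FPM (1.19 ± 0.29, FDR 0.0198). *Adh1*, an alcohol dehydrogenase that oxidizes retinol, fell from 23.4 ± 8.54 to 14.2 ± 4.17 FPM (-0.69 ± 0.13, FDR 0.00396). *Aldh1a7*, the paralog beside *Aldh1a1* on chromosome 19, rose from 6.57 ± 5.95 to 12.3 ± 11.5 FPM (0.89 ± 0.15, FDR 0.00266). The paralogs share 2.45% of the 50-base stretches of the longest *Aldh1a1* transcript and 1 stretch of 100 bases, and with both genes summed the ALL effect of *Aldh1a1* was 1.12 (FDR 0.00147). No retinoid receptor and no corepressor or coactivator of the list was called in any comparison. Of the list, 1 of 49 genes tested was called in WT VSMC under HG + FFA, where 0.29% of all genes were. It was 1 of 50 in KO VSMC under HG + FFA and under ALL (0.285% and 0.314% of all genes), 1 of 48 in EC under HG + FFA and under ALL (0.641% and 0.636%), and 0 in the other comparisons apart from ALL in WT VSMC.

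Within sets, several of the genes varied together. After subtraction of the set mean, log2 levels of *Dhrs3* over the 16 WT VSMC libraries correlated with *Aldh1a3* at r = -0.981 and with *Aldh1a2* at r = -0.947, and those of *Cyp26b1* with *Aldh1a1* at r = 0.933. Over the 38 EC libraries *Dhrs3* correlated with *Aldh1a2* at r = -0.857 and with *Cyp26b1* at r = 0.797. These libraries share sets and conditions, so the values are descriptions. Of protein-coding genes of at least 3 FPM, those most like *Dhrs3* in EC were *Tgm2* (r = 0.911), *Stbd1* (0.898) and *Acadl* (0.897). Those most like *Cyp26b1* in EC were *Stbd1* (0.885), *Specc1* (0.871) and *Cpt1a* (0.862), and those most like *Aldh1a2* were *Mylip* (0.928), *Paip2b* (0.889) and *Ivd* (0.877). In WT VSMC the closest to *Aldh1a1* were *Prex2* (0.982), *Sqle* (0.973) and *Ptp4a3* (0.957), and the closest to *Aldh1a3* were *Cd34* (0.95), *Aldh6a1* (0.948) and *Scara5* (0.946).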

How the data were processed

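The deposited files were 3 tables of raw counts per Ensembl gene (WT VSMC, KO VSMC and EC, 69 libraries of polyA RNA), which the authors made with HISAT2 2.1.0 and featureCounts on build mm39 (GRCm39). Reads with several places were counted at each. The strand setting is not stated. Members and gene lists were chosen with earlier results of these data known.

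Gene names, exon lengths and overlaps came from GENCODE vM39, promoter windows from RefSeq. FPM are counts per 1000000 of library size times the TMM factor over all libraries, and FPKM are FPM per kilobase of union exon. Each cell group was fitted with edgeR 4.0.16 (quasi-likelihood) and DESeq2 1.42.0 in R 4.3.3, with condition and set as terms, after filterByExpr. The genotype difference was an interaction in a joint fit with sets as terms, and the Control genotype comparison had no block. The FDR is the Benjamini-Hochberg value across every gene in a fit. SE of log2 fold changes came from the F statistic of edgeR, and 95% intervals use the t distribution with edgeR's total degrees of freedom. Per-set ratios used a pseudocount of 0.1 FPM. Fits were tested on simulated counts.

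Set numbers pair libraries of 1 animal and passage by the labels and the study's methods. Deviations from condition means correlated at 0.804 to 0.858 on average within sets and at -0.286 to -0.0935 between sets. Subtraction of the condition mean by itself makes the correlations between sets negative on average, so the second range says little about the pairing. No libraries of a condition agreed within sampling noise (smallest mean chi-square per gene 45.9). The genes named are the 9 members, called genes of the wider list, and for each called member the 3 genes most like it in the cell group of its smallest FDR. Columns of per-sample values left unused numbered 0. At these depths, *Rarb*, *Stra6* and *Crabp2* rest on few counts, and intervals cover counting error and the spread between sets only as the models estimate them.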

Additional observations from a re-analysis of the deposited data

Results flagged for a closer look

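Within groups of 4 to 10 libraries, single libraries stood apart from the rest in 8 of 67 groups of a gene and condition. The same sets recur across these groups, so the groups are not independent and the count cannot be set against a chance rate. *Aldh1a1* in WT VSMC set 3 was at 810.6 FPM in AII + NA and 1183 FPM in ALL, against 336 and 486 FPM in the next highest sets. KO VSMC set 5, which retained *Egfr*, held 67.5, 23.1 and 57.4 FPM of *Aldh1a3* in Control, HG + FFA and AII + NA, against at most 7.83, 2.59 and 5.78 FPM in the other KO sets, and 3.45 FPM of *Crabp2* in AII + NA against at most 0.825 FPM. In EC under HG + FFA, set 14 held 46.9 FPM of *Rdh10* (next highest 29.2) and set 12 held 541 FPM of *Cyp26b1* (next highest 255).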

How the results depend on the processing

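The 5 calls in WT VSMC under ALL and the 2 under HG + FFA stayed at 5 and 2 when each set was left out in turn. In KO VSMC the count ranged from 0 to 1 under HG + FFA and from 0 to 1 under ALL, and from 0 to 1 for the Control genotype comparison. Without the replicate block, which removes the pairing, 0 genes were called in WT VSMC (HG + FFA and ALL), KO VSMC (ALL) and EC (HG + FFA and ALL). With the animal in place of the set as the block, EC had 1 call in each of these comparisons. By DESeq2 alone KO VSMC had 1 call under HG + FFA and 3 under ALL, and the Control genotype comparison had 1. Without a minimum fold change KO VSMC had 1 under HG + FFA, without the count filter 1 and 4, and with only the 2 groups compared 3 under ALL. Over all genes, the DESeq2 FDR alone was below 0.05 for 246 (HG + FFA) and 259 (ALL) of 17538 genes in KO VSMC. In the Control genotype comparison it was below 0.05 for 343 of 16089 genes. By the edgeR FDR alone these counts were 77, 70 and 1. Shares of all genes called under the altered settings are not given, so the counts do not tell the 9 genes from the overall rate. The cause of the shifts between settings was not tested. With 1 set left out at a time, the *Rarb* effect in KO VSMC under ALL ran from -0.188 (without set 8) to 1.25, and its genotype difference from -0.25 to 1.7 under AII + NA and from -0.0625 to 1.79 under ALL, both reversed without set 5. A further 75 effects were under 0.64 in size and never passed the FDR, and 43 of them changed sign at least once. The depth limits *Rarb*, *Stra6* and *Crabp2* most.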
